A study of Homo sapiens with 32 samples.

Results

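The mRNAs of 9 factors of nonsense-mediated decay were followed in 32 poly(A) RNA-seq libraries of HEK293T cells: UPF1, UPF2, UPF3A, UPF3B, SMG1, SMG5, SMG6, SMG8 and SMG9. They were taken by name from a list of pathway genes, without use of measured values, and are 9 of 60662 gene IDs counted. Each was measured in every library and passed the filter on low counts in every experiment. HEK293T is a line derived from human embryonic kidney that carries the SV40 large T antigen. STM2457, a small molecule that blocks the catalytic activity of METTL3 and with it the deposition of N6-methyladenosine (m6A) on mRNA, was given at 20 µM in 0.2% DMSO, and its controls received 0.2% DMSO.

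The libraries were grouped here into 3 experiments. Sample titles name no experiment, and placing the 6 h libraries without siRNA beside the siRNA libraries was a choice made here. The knockdown experiment held YTHDF2 siRNA with STM2457 for 6 h, YTHDF2 siRNA with DMSO for 6 h, STM2457 for 6 h and DMSO for 6 h, with 3 libraries each. The 20 nM siRNA against YTHDF2, a reader protein that recruits decay enzymes to m6A-carrying mRNAs, was transfected 24 h after seeding, STM2457 or DMSO was added 42 h later, and cells were harvested 48 h after transfection. The 9 h experiment held STM2457 and DMSO, with 4 libraries each. The emetine experiment held emetine with STM2457, emetine with DMSO, STM2457 without emetine and DMSO without emetine, with 3 libraries each and 6 h of STM2457 or DMSO. There, 1.8 µM emetine, which blocks translation elongation, or DMSO was present for the last 2 h. In the labels the cells that got no YTHDF2 siRNA carry the genotype WT, and no label states whether these were transfected with a control siRNA. An effect of transfection and one of YTHDF2 loss cannot be told apart here. If the siRNA libraries were processed apart from those without siRNA, an effect of that could not be told apart either.

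Nonsense-mediated decay removes mRNAs whose translation ends in an abnormal context, such as upstream of an exon junction complex or before a long 3′ untranslated region (UTR), and it requires translation. UPF1 is the RNA helicase at its centre. UPF2 and either UPF3B or its paralog UPF3A link UPF1 to the exon junction complex. SMG1 is the kinase that phosphorylates UPF1, and SMG8 and SMG9 bind SMG1 and restrain it. Phosphorylated UPF1 recruits SMG6, the endonuclease that cuts the target, and SMG5, an adaptor that leads to removal of the poly(A) tail and the cap. The mRNAs of UPF1, UPF2, UPF3B, SMG1, SMG5 and SMG6 are themselves described as substrates of the pathway, a feedback loop.

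The study asked about m6A in coding regions, so the coding part of the longest coding transcript of each factor (GENCODE release 29, GRCh38) was searched for GGACT, letters that fit the m6A consensus, on the transcript strand only. No m6A was measured in these libraries, and a match is a description of the sequence alone. Among 13318 coding transcripts of tested genes, 76.7% held at least 1 GGACT, with a median of 0.995 per kb of coding sequence and a longest coding exon of 310 coding bases at the median. The windows of SMG8 and SMG9 are shown because these 2 mRNAs moved in opposite directions with STM2457. Capitals mark the motif, each window runs 5′ to 3′, and exon numbers are those of the transcript.
SMG8 exon 2, chr17:59210442-59210462, plus strand: ggctcccaGGACTacagcctt
SMG8 exon 2, chr17:59210572-59210592, plus strand: ctggaggtGGACTctctttac
SMG8 exon 2, chr17:59211438-59211458, plus strand: aaagaagaGGACTtggggtca
SMG8 exon 2, chr17:59211702-59211722, plus strand: ttacatgaGGACTgctacaaa
SMG8 exon 4, chr17:59213223-59213243, plus strand: tgtcatcaGGACTagagctga
SMG9 exon 2, chr19:43750702-43750722, minus strand: gtcagcctGGACTctatggga
SMG9 exon 2, chr19:43750613-43750633, minus strand: cgggagagGGACTacattgca
SMG9 exon 6 into the next exon, chr19:43740207-43744780 with the intron, minus strand: ggaccagaGGACTtatgtttt
SMG9 exon 9, chr19:43737614-43737634, minus strand: gttgtccaGGACTggttcaca
SMG9 exon 11, chr19:43733693-43733713, minus strand: cgccgagaGGACTtctgtcct
SMG9 exon 12, chr19:43733385-43733405, minus strand: gacttcctGGACTctgaggtc

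SMG8 (chr17:59209400-59215247, plus strand, ENSG00000167447.12) had 5 matches, 4 of them in exon 2, which is 1911 bases long and holds 1759 coding bases. Of the tested genes' transcripts, 5.22% had a coding exon with at least that many coding bases. SMG9 (chr19:43727992-43754990, minus strand, ENSG00000105771.14) had 6 matches in 1560 coding bases, or 3.85 per kb, a density reached by 1.98% of the transcripts. Its matches lay in short exons, and its longest coding exon, of 265 bases, held none. Both mRNAs thus held the motif at a density above the median, in exons of different length. SMG6, which also had 1759 coding bases in its exon 2, had 1 match there and 3 in all.

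**Figure D1:**
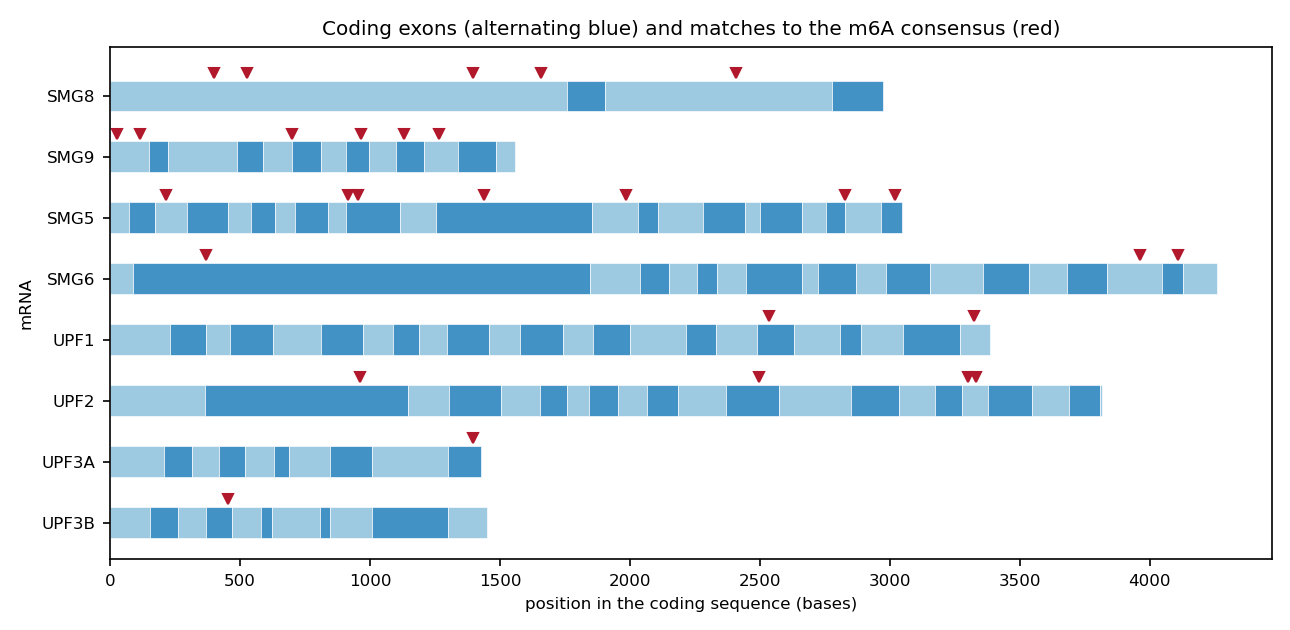
Coding exons of 8 of the 9 mRNAs (alternating light and dark blue) and matches to GGACT (red triangles) against position in the coding sequence in bases, without SMG1 (10983 coding bases). SMG8 carries 4 of its 5 matches in 1 long exon, and SMG9 carries 6 in short exons.

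The other factors held 10 matches (SMG1), 7 (SMG5), 4 (UPF2), 2 (UPF1) and 1 each (UPF3A and UPF3B). The annotated 3′ UTR was longest in SMG1, at 4716 bases, followed by SMG9 at 3604, UPF1 at 1712, SMG6 at 1649, SMG5 at 1363 and UPF2 at 1276. UPF3A had 900 and UPF3B 856 bases, below the median of 989.5 bases over the tested genes' transcripts, and SMG8 had the shortest, 237 bases, shorter than in 83.0% of them. None of the 9 transcripts had an exon junction more than 50 bases after the stop codon, a feature found in 0.3% of the tested genes' transcripts. Only transcripts annotated as protein coding were searched, and those annotated as nonsense-mediated decay targets form a separate class. SMG1, SMG8 and SMG9 each have 1 transcript of that class, so the search cannot say whether these genes lack the feature.

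Gene counts per library ran between 37694945 and 42303951 in the knockdown experiment, 22510323 and 34677704 at 9 h, and 21781514 and 28053353 in the emetine experiment. The 9 mRNAs had between 314 counts (UPF3A) and 15394 counts (SMG5) per library. Levels are in CPM, counts scaled to a common library size by TMM within an experiment. The markers of the line were present (VIM, NEFL, NEFM and, at 2.91 to 5.51 CPM, PAX2), while 5 markers of blood, liver and keratin epithelium (PTPRC, CD3E, ALB, KRT5, KRT14) had group means of at most 0.0578 CPM. COL1A1, a fibroblast collagen, reached 23.8 CPM. YTHDF2 averaged 43.3 ± 1.14 CPM with its siRNA in DMSO and 178 ± 3.91 CPM without (SD, n = 3 each). It rose with STM2457 at 6 h by 1.79 ± 0.05 (log2, SE, edgeR adjusted p = 4.75e-14). With STM2457, YTHDF2 averaged 76.9 ± 3.28 CPM with siRNA and 618 ± 36.8 CPM without. In siRNA-treated cells it was thus higher with STM2457 than with DMSO, by 0.83 ± 0.06 (log2, SE, edgeR adjusted p = 1.7e-09). METTL3 averaged 75.6 ± 2.30 CPM with STM2457 at 6 h and 68.9 ± 0.29 CPM with DMSO (SD, n = 3 each). Its log2 change with siRNA in DMSO was -0.24 ± 0.04 (SE, edgeR adjusted p = 0.000112). No label says that replicates were separate cultures, so each p-value speaks for the spread of these libraries, which may be technical.

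Per kb of annotated exon, the order of levels in DMSO was the same at the top in each experiment. SMG5 led, with 35.6 ± 2.29 CPM per kb in the knockdown experiment, 57.7 ± 0.66 at 9 h and 59.1 ± 2.76 in the emetine experiment. UPF3B, UPF1, SMG8 and UPF2 followed in this order in all 3. UPF1 at 18.9 ± 0.94 and SMG8 at 17.9 ± 1.28 CPM per kb lay within their spread in the knockdown experiment, and so did UPF3B at 24.9 ± 2.11, UPF1 at 22.6 ± 1.15 and SMG8 at 22.4 ± 0.09 in the emetine experiment. UPF3A was lowest in each, at 2.37 ± 0.04, 3.62 ± 0.17 and 3.06 ± 0.07 CPM per kb, below its paralog UPF3B. SMG1 had 2.91 ± 0.21 CPM per kb in the knockdown, 8.67 ± 0.37 in the 9 h and 3.53 ± 0.26 in the emetine experiment. These 3 tables were scaled apart, and the difference between experiments was not tested. Exon length here is the union over all annotated transcripts.

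**Figure D2:**
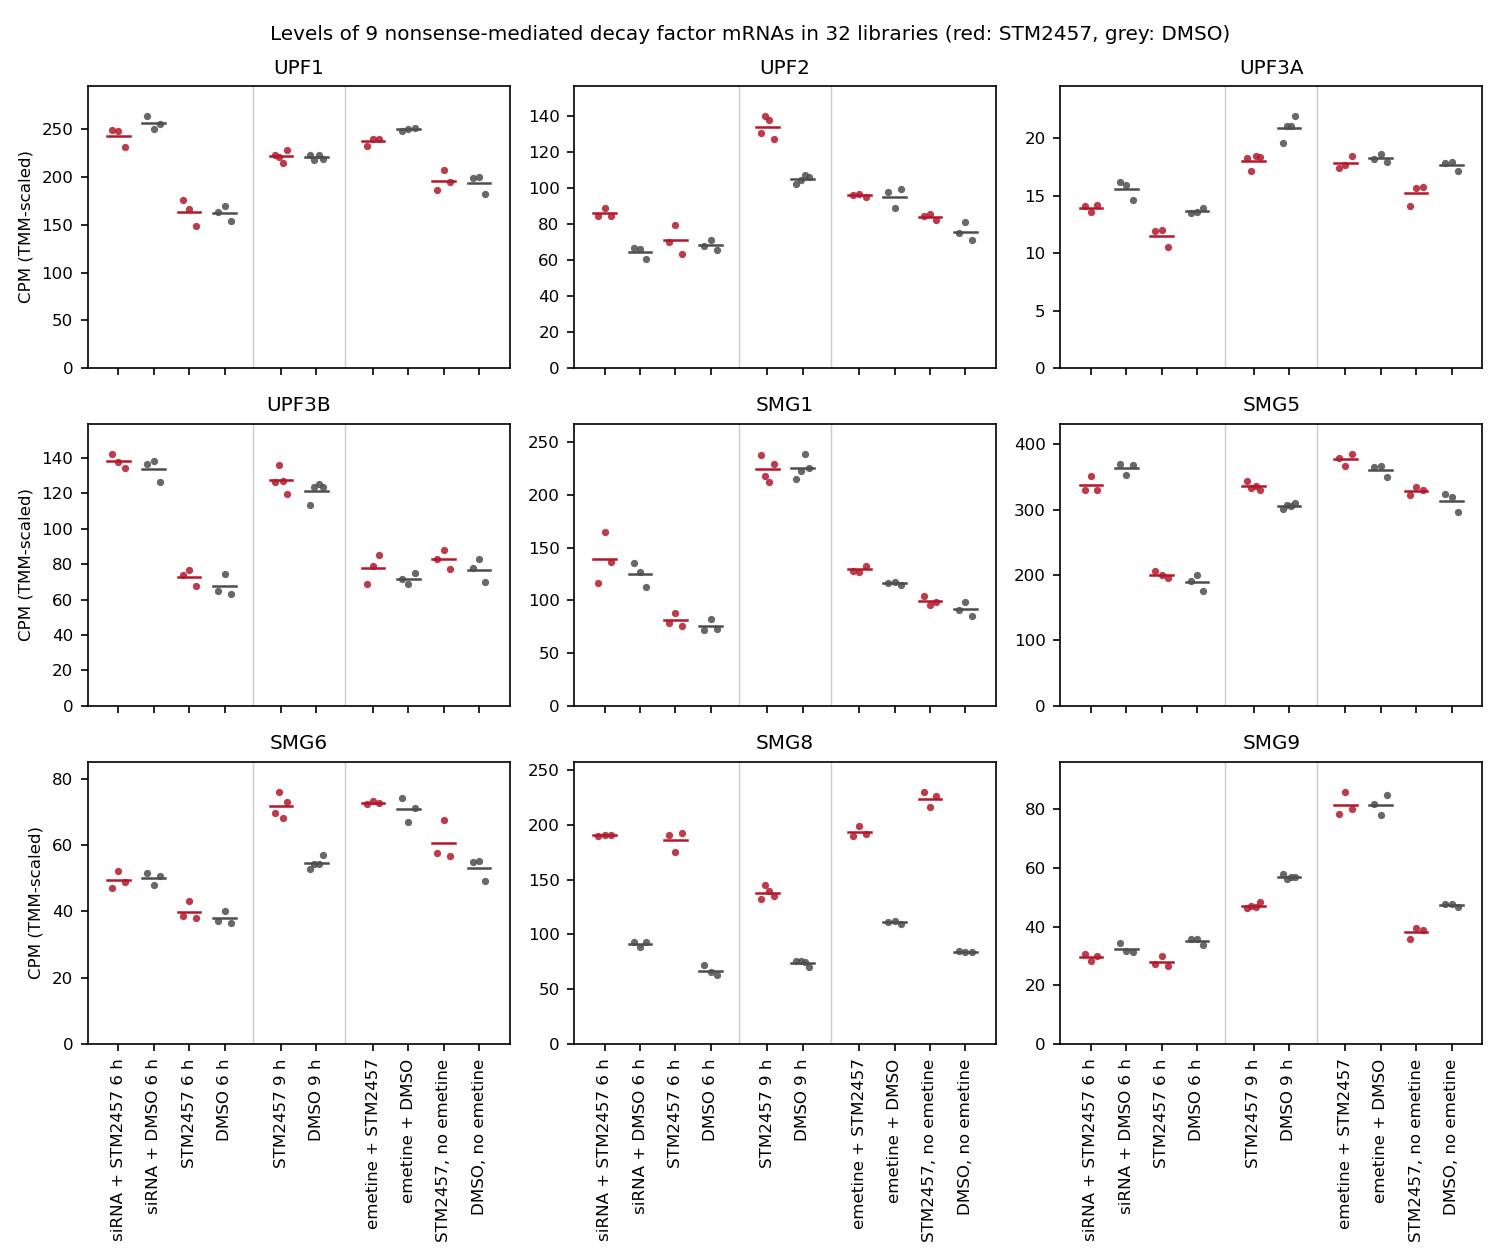
CPM of each mRNA in every library (points, red with STM2457 and grey with DMSO) with group means (bars), on y axes that start at 0. SMG8 with STM2457 lies above SMG8 with DMSO in all 5 pairs of groups. Within the knockdown experiment, the siRNA libraries lie above those without siRNA for UPF1, UPF3B, SMG1, SMG5 and SMG6.

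STM2457 raised SMG8 more than any other factor. At 6 h SMG8 had 190.5, 175.8 and 193.0 CPM with STM2457, against 72.3, 65.9 and 62.9 CPM with DMSO. Every STM2457 library was higher than every DMSO library. The log2 change was 1.48 ± 0.06 (SE, n = 3 each), a 2.78-fold higher level (edgeR adjusted p = 7.18e-13). In the emetine experiment without emetine, SMG8 had 230.2, 216.1 and 226.6 CPM with STM2457, against 84.5, 84.3 and 83.8 CPM with DMSO. That is a log2 change of 1.41 ± 0.04 (edgeR adjusted p = 5.82e-26), close to the 6 h value from another set of libraries. At 9 h, SMG8 had 132.8, 144.9, 139.7 and 134.8 CPM with STM2457 and 75.6, 76.1, 74.8 and 69.9 CPM with DMSO, again without overlap, and a log2 change of 0.90 ± 0.04 (n = 4 each, edgeR adjusted p = 1.07e-16). A fit of both time points called the difference between the 9 h and 6 h effects higher for 2 factors and lower for 1, beside 34.0% of genes called (17.2% higher, 16.8% lower). For SMG8 the 9 h effect was lower than the 6 h effect by a log2 difference of -0.56 ± 0.08 (edgeR adjusted p = 1.52e-05), but time and experiment cannot be told apart. SMG8 shares 11.25% of its exon bases with an unnamed coding gene on the same strand, ENSG00000265303, which had a mean of 0.0 CPM in every group.

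SMG9, which binds SMG1 together with SMG8, fell with STM2457 at 6 h, at 9 h and without emetine, where SMG8 rose. At 6 h SMG9 had 27.4, 30.1 and 26.6 CPM with STM2457, against 35.6, 35.7 and 33.8 CPM with DMSO, a log2 change of -0.32 ± 0.06 (edgeR adjusted p = 0.000242). Without emetine it had 35.9, 39.4 and 39.0 CPM with STM2457 and 47.7, 47.9 and 46.7 CPM with DMSO (log2 change -0.31 ± 0.05, edgeR adjusted p = 2.1e-06). At 9 h it had 46.3, 47.2, 46.8 and 48.6 CPM with STM2457 and 57.9, 56.1, 57.0 and 57.0 CPM with DMSO (log2 change -0.27 ± 0.04, edgeR adjusted p = 2.84e-07). All STM2457 libraries were below all DMSO libraries in these 3 comparisons. UPF3A also fell in each: its log2 change was -0.25 ± 0.07 at 6 h (edgeR adjusted p = 0.00633), -0.21 ± 0.07 without emetine (adjusted p = 0.00731) and -0.22 ± 0.05 at 9 h (adjusted p = 0.000918). UPF3A had 11.96, 12 and 10.5 CPM with STM2457 and 13.5, 13.6 and 13.9 CPM with DMSO at 6 h, without overlap.

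The count ratio of SMG8 to SMG9 within a library needs no scaling between libraries. It is given as a description, since the pair was chosen after its values were seen. The ratio was 6.69 ± 0.76 with STM2457 and 1.91 ± 0.10 with DMSO at 6 h (SD, n = 3 each). It was 2.92 ± 0.13 with STM2457 and 1.30 ± 0.05 with DMSO at 9 h (n = 4 each). Without emetine it was 5.90 ± 0.46 with STM2457 and 1.78 ± 0.02 with DMSO. No STM2457 library reached down to a DMSO library in any of these.

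**Figure D3:**
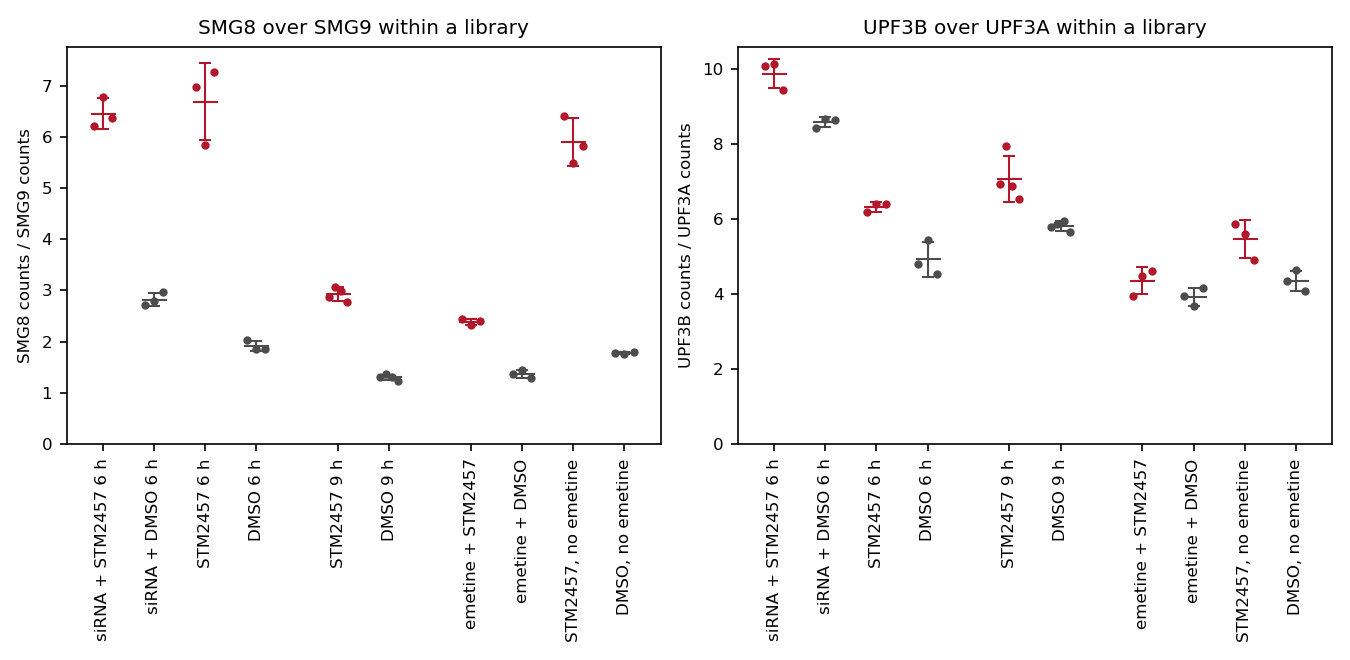
Count ratios within each library for SMG8 over SMG9 (left) and UPF3B over UPF3A (right), with points for libraries, bars for the mean and whiskers for 1 SD, red with STM2457 and grey with DMSO. SMG8 over SMG9 is 6.69 with STM2457 and 1.91 with DMSO at 6 h, while with emetine it is 2.38 with STM2457 and 1.37 with DMSO.

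Counting members, 1 factor rose (SMG8) and 2 fell (SMG9 and UPF3A) with STM2457 at 6 h, beside 45.0% of all tested genes called in either direction (22.9% higher, 22.1% lower). At 9 h, 4 rose (SMG8, SMG6, UPF2 and SMG5) and 2 fell, beside 64.7% of genes called (32.2% higher, 32.5% lower). Without emetine, 4 rose (SMG8, SMG6, UPF2 and SMG1) and 2 fell, beside 47.8% (26.0% higher, 21.9% lower). The 3, 6 and 6 of 9 factors called stood on both sides of these background shares. The other 8 members had log2 changes between -0.32 and 0.39 in these 3 comparisons, against 0.90 to 1.48 for SMG8.

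UPF2 and SMG6 were higher with STM2457 at 9 h. UPF2 had 130.5, 140.1, 137.9 and 127.6 CPM with STM2457 at 9 h and 102.6, 104.6, 107.4 and 106.2 CPM with DMSO (log2 change 0.35 ± 0.03, edgeR adjusted p = 1.38e-09). SMG6 had 69.8, 76.1, 68.3 and 72.9 CPM with STM2457 and 52.9, 54.3, 54.4 and 57.2 CPM with DMSO (log2 change 0.39 ± 0.04, edgeR adjusted p = 2.72e-09). Neither pair of groups overlapped. At 6 h in the knockdown experiment the log2 changes were 0.06 ± 0.07 for UPF2 and 0.07 ± 0.06 for SMG6, neither past the threshold. The difference between the 9 h and 6 h effects was 0.32 ± 0.08 for UPF2 (edgeR adjusted p = 0.00492) and 0.34 ± 0.08 for SMG6 (adjusted p = 0.00172). HIC1, a gene on the opposite strand that shares 22.9% of the SMG6 exon bases, averaged 4.18 CPM with STM2457 and 1.63 CPM with DMSO at 9 h, and its part in the SMG6 counts was not tested.

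Without emetine the smaller rises were less firm. UPF2 had a log2 change of 0.15 ± 0.05 (edgeR adjusted p = 0.00538), SMG6 0.19 ± 0.05 (adjusted p = 0.00415) and SMG1 0.12 ± 0.04 (adjusted p = 0.023). SMG1 averaged 99.5 CPM with STM2457 and 91.7 CPM with DMSO. Its 7 annotated pseudogenes, near-identical copies that can share reads with it, summed to 21.4 and 9.34 CPM. Their part in the SMG1 value was not tested. UPF2 was no longer called without DMSO replicate 1 (0.12, adjusted p = 0.0673), DMSO replicate 3 (0.09, adjusted p = 0.113) or STM2457 replicate 2 (0.11, adjusted p = 0.0555). SMG6 was lost without DMSO replicate 3 (0.12, adjusted p = 0.0831) or STM2457 replicate 2 (0.08, adjusted p = 0.22), and SMG1 without any of 4 libraries (DMSO replicates 1 and 3 and STM2457 replicates 1 and 3), with log2 changes between 0.05 and 0.09. Without DMSO replicate 3 the count of called factors was 3. SMG5, the adaptor, rose at 9 h by a log2 change of 0.13 ± 0.03 (edgeR adjusted p = 0.00018), with 330.5 to 344.0 CPM with STM2457 and 301.6 to 310.1 CPM with DMSO. UPF1, the helicase, did not pass the threshold in any of the 3, with log2 changes of 0.01 ± 0.06, 0.01 ± 0.03 and 0.02 ± 0.04 at 6 h, at 9 h and without emetine. UPF3B had 0.11 ± 0.06, 0.07 ± 0.04 and 0.10 ± 0.06, not past the threshold, but it passed as higher without DMSO replicate 2 at 6 h (0.17) or STM2457 replicate 4 at 9 h (0.10).

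**Figure D4:**
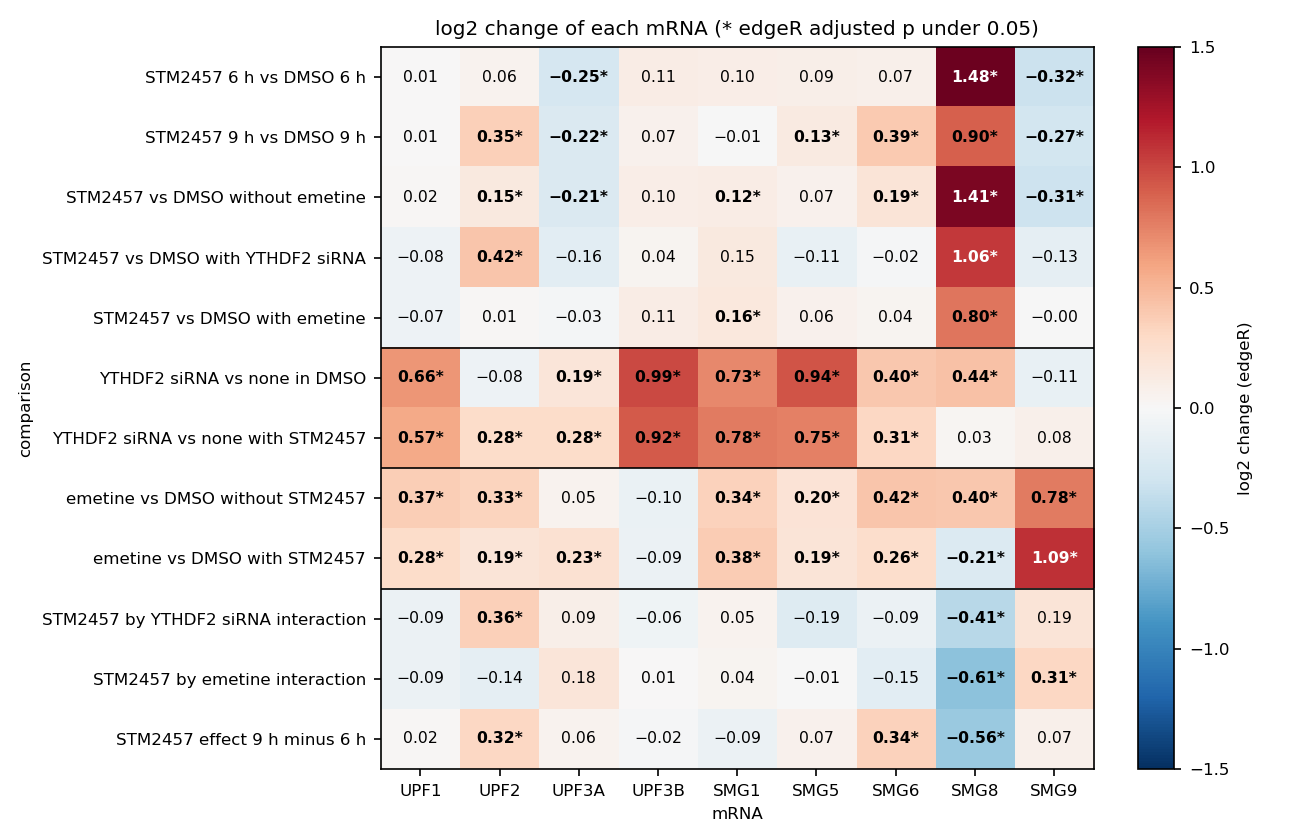
Fitted log2 change of each mRNA in 12 comparisons (rows), with the group named before "vs" over the one after it, coloured by direction and with an asterisk where the edgeR adjusted p is under 0.05. SMG8 is positive in every row of STM2457 against DMSO, 1.48 at most, and the rows of YTHDF2 siRNA hold the largest values of UPF3B (0.99) and SMG5 (0.94).

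YTHDF2 siRNA raised 7 of the 9 factors in DMSO and lowered none, beside 62.4% of all genes called in either direction (33.1% higher, 29.3% lower). With STM2457, siRNA also raised 7 and lowered none, beside 59.9% called (29.8% higher, 30.1% lower). UPF3B had 136.7, 138.0 and 126.2 CPM with siRNA in DMSO, against 64.7, 74.3 and 63.2 CPM without siRNA, a log2 change of 0.99 ± 0.06 (edgeR adjusted p = 2.35e-10). SMG5 had 369.8, 352.4 and 367.6 CPM with siRNA, against 190.9, 199.8 and 175.7 CPM without it (log2 change 0.94 ± 0.05, edgeR adjusted p = 3.91e-11). These are fold changes of 1.98 and 1.92, and all siRNA libraries were above all libraries without siRNA for both mRNAs. Levels in DMSO without siRNA also differed between experiments, which were scaled apart. UPF3B averaged 121 CPM at 9 h and 76.8 CPM in the emetine experiment, and SMG5 306 and 314 CPM. Whether processing differed between the libraries with and without siRNA was not tested.

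The kinase and the helicase followed. SMG1 had 135.4, 126.9 and 113.0 CPM with siRNA in DMSO, against 72.2, 82.0 and 72.7 CPM without (log2 change 0.73 ± 0.10, edgeR adjusted p = 3.36e-06). UPF1 had 263.9, 250.2 and 255.6 CPM with siRNA, against 163.8, 170.0 and 153.9 CPM without (log2 change 0.66 ± 0.06, edgeR adjusted p = 2.55e-08). The 7 annotated SMG1 pseudogenes, near-identical copies that can share reads with SMG1, summed to 8.70 CPM with siRNA and 8.79 CPM without, in DMSO. SMG8 rose by 0.44 ± 0.06 (edgeR adjusted p = 1.38e-06), SMG6 by 0.40 ± 0.06 (adjusted p = 1.57e-05) and UPF3A by 0.19 ± 0.07 (adjusted p = 0.0213). UPF3A was no longer called without any of 5 of the 6 libraries (all but siRNA replicate 3), with values between 0.13 and 0.17, nor with no filter on low counts (0.17). UPF2 (-0.08 ± 0.07) and SMG9 (-0.11 ± 0.06) were not past the threshold. SMG9 passed it as lower without DMSO replicate 3 (-0.16) or siRNA replicate 1 (-0.18).

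With STM2457 present, the siRNA values were similar for most factors. UPF3B changed by 0.92 ± 0.06, SMG1 by 0.78 ± 0.10, SMG5 by 0.75 ± 0.05 and UPF1 by 0.57 ± 0.06, with the largest edgeR adjusted p among them at 1.57e-06. SMG6 rose by 0.31 ± 0.06, and UPF3A and UPF2 both by 0.28 ± 0.07. SMG8 had 189.8, 191.2 and 191.0 CPM with siRNA and STM2457, against 190.5, 175.8 and 193.0 CPM with STM2457 alone, groups that overlap (log2 change 0.03 ± 0.05, edgeR adjusted p = 0.625). SMG9 changed by 0.08 ± 0.06, not past the threshold.

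Seen the other way, STM2457 in siRNA-treated cells raised 2 factors and lowered none, beside 30.9% of genes called (15.5% higher, 15.4% lower). SMG8 had 189.8, 191.2 and 191.0 CPM with STM2457 and siRNA, against 92.7, 88.1 and 92.9 CPM with siRNA alone (log2 change 1.06 ± 0.06, edgeR adjusted p = 7.16e-11). UPF2 had 84.7, 88.8 and 84.8 CPM with STM2457 and siRNA, against 66.7, 66.2 and 60.8 CPM with siRNA alone (log2 change 0.42 ± 0.07, edgeR adjusted p = 9.01e-05). Neither pair overlapped. SMG9 averaged 29.6 ± 1.24 CPM with STM2457 and siRNA and 32.4 ± 1.61 CPM with siRNA alone, with a log2 change of -0.13 ± 0.06 (edgeR adjusted p = 0.11), not past the threshold. SMG1, at 0.15 ± 0.10, was not called, but passed as higher without replicate 1 of siRNA with STM2457 (0.26). The test of the difference between the STM2457 effects with and without siRNA called 1 factor higher and 1 lower, beside 8.70% of genes (1.78% higher, 6.93% lower). The STM2457 effect on SMG8 was smaller with siRNA by -0.41 ± 0.08 (edgeR adjusted p = 0.0019), and that on UPF2 was larger by 0.36 ± 0.10 (adjusted p = 0.0227). The UPF2 call was lost without DMSO replicate 2 (0.34, adjusted p = 0.0568), siRNA replicate 3 in DMSO (0.32, adjusted p = 0.0732) or siRNA replicate 2 with STM2457 (0.35, adjusted p = 0.0544), which left 1 factor called. Over all genes, this difference was called for 1450 genes, and for 966 without DMSO replicate 1, 879 without siRNA replicate 1 in DMSO, 928 without siRNA replicate 3 with STM2457 and 2196 without STM2457 replicate 3.

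The count ratio of the paralogs UPF3B and UPF3A within a library, also a description of a pair chosen after its values were seen, was 8.59 ± 0.13 with siRNA and 4.93 ± 0.47 without it in DMSO. With STM2457 it was 9.89 ± 0.38 with siRNA and 6.33 ± 0.13 without. At 9 h the ratio was 7.07 ± 0.62 with STM2457 and 5.81 ± 0.13 with DMSO.

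Emetine raised 7 of the 9 factors relative to the other genes without STM2457 and lowered none, beside 62.2% of genes called (33.9% higher, 28.3% lower). SMG9 responded most: it had 81.9, 78.2 and 84.8 CPM with emetine, against 47.7, 47.9 and 46.7 CPM without, a log2 change of 0.78 ± 0.04 (edgeR adjusted p = 1.26e-16). SMG6 rose by 0.42 ± 0.05, SMG8 by 0.40 ± 0.04, UPF1 by 0.37 ± 0.04, SMG1 by 0.34 ± 0.04, UPF2 by 0.33 ± 0.04 and SMG5 by 0.20 ± 0.04, all with an edgeR adjusted p of 6.76e-06 or less. UPF3A (0.05 ± 0.06) and UPF3B (-0.10 ± 0.06) were not past the threshold. UPF3B passed it as lower without DMSO replicate 3 (-0.18, edgeR adjusted p = 0.00536). The SMG1 pseudogenes summed to 37.5 CPM with emetine and 9.34 CPM without, while SMG1 averaged 116 ± 1.07 CPM with emetine and 91.7 ± 6.67 CPM without. How far reads from these copies enter the SMG1 value was not tested.

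With STM2457 present, emetine raised 7 factors and lowered 1, beside 59.8% of genes called (30.4% higher, 29.4% lower). SMG9 had 78.3, 85.9 and 80.1 CPM with emetine and STM2457, against 35.9, 39.4 and 39.0 CPM with STM2457 alone, a log2 change of 1.09 ± 0.05 (edgeR adjusted p = 8.66e-20). SMG8 had 190.4, 199.6 and 192.0 CPM with emetine and STM2457, against 230.2, 216.1 and 226.6 CPM with STM2457 alone (log2 change -0.21 ± 0.03, edgeR adjusted p = 1.64e-06). SMG9 was higher, and SMG8 lower, in every emetine library than in every library with STM2457 alone. On the scale of the spike-in RNAs this SMG8 value turned to 0.33 (edgeR adjusted p = 6.11e-05). SMG1 rose by 0.38 ± 0.04, UPF1 by 0.28 ± 0.04, SMG6 by 0.26 ± 0.05, UPF3A by 0.23 ± 0.07, and UPF2 and SMG5 both by 0.19. UPF3A was lost without STM2457 replicate 1 of the libraries without emetine (0.16, adjusted p = 0.0571). UPF3B, at -0.09 ± 0.06, was not called, but passed as lower without replicate 3 of either group (-0.16 in both).

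STM2457 in emetine-treated cells raised 2 of the 9 factors, SMG8 and SMG1, and lowered none, beside 37.8% of genes called (21.6% higher, 16.2% lower). SMG8 had 190.4, 199.6 and 192.0 CPM with STM2457 and emetine, against 111.3, 112.6 and 110.0 CPM with emetine alone (log2 change 0.80 ± 0.03, edgeR adjusted p = 2.82e-19). SMG1 had 128.3, 127.1 and 133.0 CPM with STM2457 and emetine, against 116.6, 117.1 and 115.0 CPM with emetine alone (log2 change 0.16 ± 0.04, edgeR adjusted p = 0.00255). Here the SMG1 pseudogenes summed to 73.8 CPM with STM2457 and emetine and 37.5 CPM with emetine alone. SMG9 averaged 81.4 ± 3.98 CPM with STM2457 and emetine and 81.6 ± 3.32 CPM with emetine alone, with overlapping libraries. Its log2 change was -0.003 ± 0.04 (edgeR adjusted p = 0.963). UPF3B, at 0.11 ± 0.06, was not called, but passed as higher without replicate 1 of STM2457 with emetine (0.19, edgeR adjusted p = 0.00846).

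The test of the difference between the STM2457 effects with and without emetine called SMG8 lower and SMG9 higher, beside 17.8% of genes (6.71% higher, 11.1% lower). The difference was -0.61 ± 0.05 for SMG8 (edgeR adjusted p = 4.82e-11) and 0.31 ± 0.06 for SMG9 (adjusted p = 0.000602). Both effects of STM2457 were thus smaller in size with emetine than without it. The ratio of SMG8 to SMG9 counts was 2.38 ± 0.06 with STM2457 and emetine and 1.37 ± 0.07 with emetine alone (n = 3 each). For UPF2 the difference, -0.14 ± 0.06, was not past the threshold, but it was without DMSO replicate 2 of the emetine libraries (-0.19) or of those without emetine (-0.18).

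Spike-in RNAs in the knockdown and emetine libraries gave another scale. The 9 h libraries had no spike-in counts, so the 9 h rises of UPF2, SMG6 and SMG5 could not be put on this scale. Bulk libraries cannot tell fewer cells from less mRNA per cell, and whether the spike-in amount was set per cell or per amount of RNA is not given in the sources used here. The spike-in share of counts overlapped between STM2457 and DMSO libraries in each STM2457 comparison. At 6 h it was 0.415%, 0.328% and 0.463% with STM2457 and 0.309%, 0.365% and 0.301% with DMSO. Every emetine library had a lower share than every library without emetine. With spike-in scaling the median gene shifted by -0.37 (log2) for STM2457 at 6 h, -0.31 with siRNA, -0.13 without emetine and -0.08 with emetine. The shift was 0.49 for emetine and 0.53 for emetine with STM2457. The split of calls over all genes moved with it, to 398 higher and 5023 lower for STM2457 at 6 h (3814 and 3677 by TMM), 138 and 2381 with siRNA (2577 and 2569), 2092 and 4679 without emetine (4108 and 3459), and 1351 and 2581 with emetine (3409 and 2563). For emetine it was 11558 higher and 227 lower (5360 and 4477 by TMM), and with STM2457 11548 and 219 (4805 and 4654). SMG8 stayed higher and called with STM2457 on the spike-in scale, with log2 changes of 1.10 at 6 h, 0.76 with siRNA, 1.28 without emetine and 0.72 with emetine. The smaller rises with STM2457 were not called on this scale: UPF2 had 0.10 with siRNA (edgeR adjusted p = 0.694) and 0.02 without emetine (adjusted p = 0.88), SMG6 had 0.06 without emetine (adjusted p = 0.623), and SMG1 had 0.07 with emetine (adjusted p = 0.583) and -0.02 without it (adjusted p = 0.877). SMG9 and UPF3A stayed lower and called at 6 h (-0.67 and -0.61) and without emetine (-0.45 and -0.35). With emetine all 9 factors were called higher, beside 11558 of 15817 genes without STM2457 and 11548 with it. Without STM2457, SMG9 had 1.27 and UPF3B 0.39. Relative to the median shift the values were as in the TMM fit, for example 0.79 for SMG9 and -0.10 for UPF3B. With siRNA, where the median shifts were 0.02 in DMSO and 0.08 with STM2457, UPF1, UPF3B, SMG1 and SMG5 were called higher in both comparisons. Of 16662 genes, 2653 were called higher in DMSO and 2599 with STM2457. SMG8 (0.47 ± 0.19, edgeR adjusted p = 0.0529), SMG6 (0.43 ± 0.20, adjusted p = 0.0848) and UPF3A (0.21 ± 0.21, adjusted p = 0.478) were no longer called in DMSO. Nor were SMG6 (0.38 ± 0.20, adjusted p = 0.144), UPF2 (0.34 ± 0.19, adjusted p = 0.196) and UPF3A (0.35 ± 0.21, adjusted p = 0.22) with STM2457. None of these values was smaller than by TMM, where the SE was 0.06 to 0.07. The differences by siRNA of SMG8 (-0.345 ± 0.27) and UPF2 (0.39 ± 0.27) were not called on this scale, beside SEs of 0.08 and 0.10 by TMM. Nor was that of SMG9 by emetine (0.36 ± 0.12, adjusted p = 0.0542), with an SE of 0.06 by TMM.

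The surrounding machinery was counted in lists of genes, with rose and fell relative to the TMM scale. Of 20 mRNAs and noncoding RNAs described as substrates of nonsense-mediated decay, 14 were higher and 4 lower with emetine, beside 33.9% and 28.3% of all genes, and their median log2 change was 0.42, beside 0.04 over all genes. The 3 with the smallest p were ATF3, a stress transcription factor, at 2.17 ± 0.05, SNHG15, a snoRNA host gene, at 1.80 ± 0.04, and MAP3K14, the NF-kB-inducing kinase, at 2.702 ± 0.06. With STM2457 without emetine, 14 were higher and 1 lower, beside 26.0% and 21.9% of all genes (median 0.35, beside 0.00), led by SNHG16 at 0.65 ± 0.04, TBL2 at 0.48 ± 0.04 and SNHG1 at 0.53 ± 0.05. At 9 h 12 were higher and 3 lower, beside 32.2% and 32.5% (median 0.16, beside -0.00), and at 6 h 8 and 2, beside 22.9% and 22.1% (median 0.13, beside -0.02). With siRNA in DMSO 8 were higher and 6 lower, shares near the 33.1% and 29.3% of all genes (median -0.04, beside 0.02), led by SLC7A11, the cystine transporter subunit, at -1.63 ± 0.08, TBL2 at 0.68 ± 0.05 and SNHG16 at -0.58 ± 0.04. SNHG16 shares 30.6% of its exon bases with an unnamed coding gene on the other strand, and the SNHG genes host snoRNAs. On the spike-in scale 18 of the 20 were called higher and 2 lower with emetine, beside 11558 and 227 of 15817 genes. With STM2457 without emetine it was 10 and 3, beside 2092 and 4679 of 15817 genes. With STM2457 at 6 h none was higher and 3 were lower, beside 398 and 5023 of 16662 genes. The list median at 6 h was then -0.23, beside -0.39 over all genes, so its direction turned with the scaling.

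**Figure D5:**
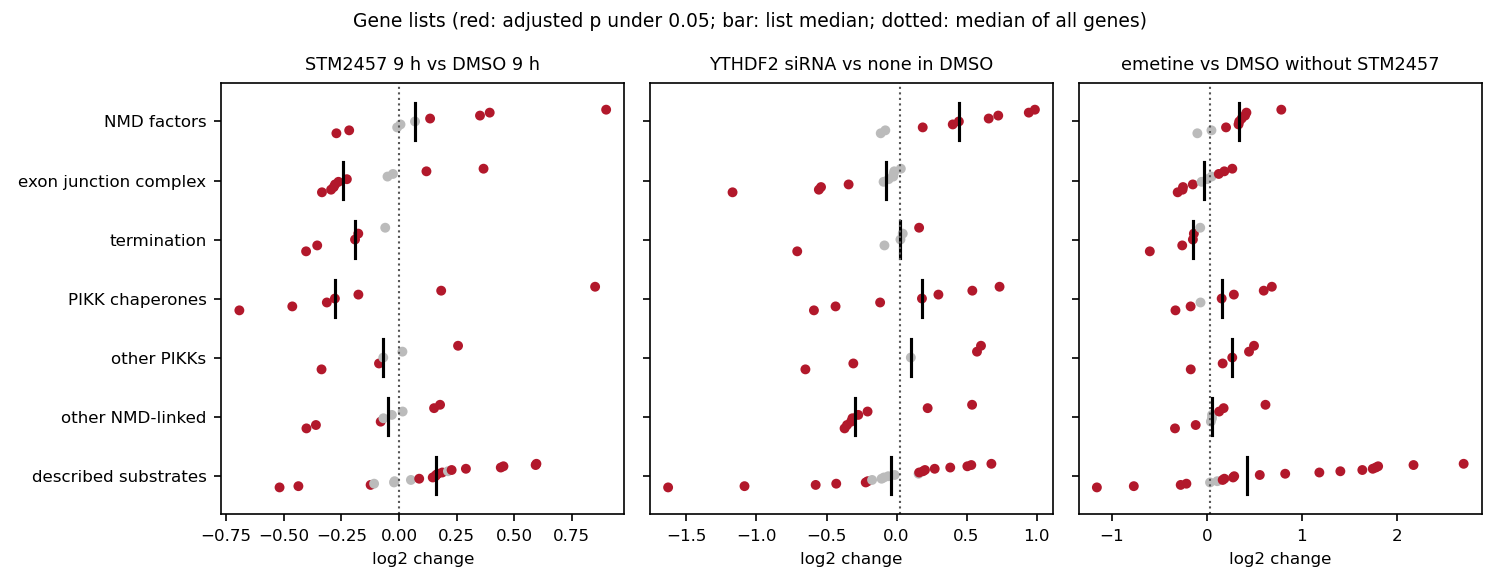
Log2 changes of the members of 7 gene lists (points, red where the edgeR adjusted p is under 0.05 and grey where not) for STM2457 at 9 h, YTHDF2 siRNA in DMSO and emetine without STM2457, with bars for list medians and a dotted line for the median of all genes. The median of the 9 factors is 0.07, 0.44 and 0.34 in these panels, and that of the exon junction complex is below 0 in all 3.

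The median of the 9 factors was 0.07 with STM2457 at 6 h and at 9 h, 0.44 with siRNA in DMSO and 0.34 with emetine. Of 10 genes of the exon junction complex and its partners, which mark spliced mRNAs, none was higher and 4 were lower with siRNA in DMSO, beside 33.1% and 29.3% of all genes. MAGOHB fell by 1.17, CASC3 by 0.55 and EIF4A3 by 0.54 on the log2 scale, each with an SE of 0.07 or less. At 9 h of STM2457, 2 of the 10 were higher and 6 lower, beside 32.2% and 32.5%. Among them CWC22, a splicing factor that brings EIF4A3 to mRNA, rose by 0.37 ± 0.04, and RBM8A fell by 0.33. CWC22 was also higher at 6 h (0.68 ± 0.05, 0.32 and not called on the spike-in scale) and without emetine (0.54 ± 0.04, 0.40 on the spike-in scale). With emetine 3 of the 10 were higher and 4 lower, beside 33.9% and 28.3% of all genes. On the spike-in scale all 10 were called higher, beside 11558 of 15817 genes (median 0.46, beside 0.52 over all genes).

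Of the translation termination factors, 5 of 6 were tested, and GSPT2 was not. At 9 h of STM2457 none was higher and 4 were lower, beside 32.2% and 32.5% of all genes, with ABCE1, the ribosome recycling factor, at -0.40 ± 0.03 and ETF1, the release factor, at -0.36 ± 0.03. With emetine none was higher and 4 were lower, beside 33.9% and 28.3%, with the poly(A)-binding protein PABPC1 at -0.60 ± 0.03. On the spike-in scale 4 were called higher with emetine and none lower, beside 11558 and 227 of 15817 genes. PABPC1 had -0.11 on that scale, not called. With siRNA in DMSO, ABCE1 fell by 0.71, and ETF1 rose by 0.16, a call not made on the spike-in scale. ABCE1 overlaps coding genes on the other strand.

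The kinase SMG1 belongs to the PIKK family, which the TTT and R2TP chaperones assemble. Of 7 such chaperone genes, 2 were higher and 5 lower with STM2457 at 9 h, where 32.2% of all genes were higher and 32.5% lower. TTI1, a subunit of the TTT complex, rose by 0.85 ± 0.03, and PIH1D1, of R2TP, fell by 0.69. TTI1 was also higher at 6 h (0.60 ± 0.05, but 0.25 and not called on the spike-in scale) and with siRNA in DMSO (0.74 ± 0.05). With emetine 4 were higher and 2 lower, beside 33.9% and 28.3%, led by TELO2, another TTT subunit, at 0.68 ± 0.04. On the spike-in scale 6 were called higher and none lower, beside 11558 and 227 of 15817 genes. Of the 5 other PIKK kinases, ATR fell at 6 h by 0.74, at 9 h by 0.34 and without emetine by 0.80 on the log2 scale. With emetine 4 of the 5 were higher and 1 lower, beside 33.9% and 28.3% (ATR 0.44 ± 0.04, ATM 0.50 ± 0.05). On the spike-in scale all 5 were called higher with emetine, beside 11558 of 15817 genes. An EIF2AK1 pseudogene on the other strand shares 16.4% of the ATR exon bases. Of 8 other genes linked to the pathway, DHX34, a helicase that promotes UPF1 phosphorylation, was higher with emetine (0.62 ± 0.04). With siRNA in DMSO 2 of the 8 were higher and 6 lower, beside 33.1% and 29.3% of all genes. On the spike-in scale 1 was called higher with siRNA in DMSO and none lower, beside 2653 and 2229 of 16662 genes. The list median was -0.27 on that scale and -0.29 by TMM.

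Across the 10 group means, each centred within its experiment, UPF1 was most like SMG1 (Pearson r = 0.95) and SMG5 (r = 0.95), and UPF3B most like SMG5 (r = 0.94). SMG8 was most like UPF2 (r = 0.64) and least like UPF3A (r = -0.61), and SMG9 most like UPF3A (r = 0.59) and least like SMG8 (r = -0.30). Among 8165 protein-coding genes outside the set, PIK3R1 (r = 0.99), REL (0.99), E2F7 (0.99), KMT2B (0.98) and ERN1 (0.98) were most like the mean profile of the 9. These points share libraries and treatments, and the values are descriptions with no test.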

How the data were processed

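RNA was poly(A)-selected and libraries were strand-specific, per the labels' protocols. The files deposited by the authors hold whole-number counts for each Ensembl gene ID, not normalized. The authors' tools, per the submitters' processing notes, include the aligner STAR 2.7.3a and featureCounts of Subread 2.0.0, on GRCh38.p12, besides Trimmomatic, cutadapt (1.18, 4.0), FastQC 0.11.8 and SAMtools 1.9. Which annotation release and which strand setting served for counting is not given in the sources used here. Overlapping genes and near-identical copies may therefore share reads. Symbols matched 60306 of 60662 IDs, and 58587 IDs were in GENCODE release 29. Counts of 92 ERCC spike-ins in 24 libraries were kept apart from the genes. No 2 libraries held identical values.

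The test was that of edgeR 4.0.16, run in R 4.3.3 (TMM, filterByExpr, quasi-likelihood F tests), and p-values were adjusted by Benjamini-Hochberg over all genes tested, with a threshold of 0.05. The experiments were fitted apart, and a further fit held the 14 libraries of 6 h and 9 h for the difference between time points. There were 12 comparisons, 9 between groups and 3 of differences between effects. A log2 change is positive where the group named first is higher, and ± after it is the SE. Means are given ± SD over libraries. The procedure was tested on simulated data.

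The members, lists, tests and alternatives were chosen with earlier results of these data known. All members are named, and from each list up to 3 genes by smallest p in a comparison. A few list genes, such as CWC22, TTI1 and ATR, were followed across comparisons after their values were seen. Likeness was the correlation of centred log2 CPM (prior count 2) over 10 groups, for genes whose mean log2 CPM reached 4. Alternatives were median-ratio size factors, DESeq2 1.42.0, no filter on low counts, spike-in scaling, a replicate block, and each library left out in turn. One marker of another cell type is not reported here.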

Additional observations from a re-analysis of the deposited data

Results flagged for a closer look

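Each of the 9 mRNAs was tested in the 9 h STM2457 and the 9 h DMSO libraries for a single library far from the others. Of these 18 tests 2 stood out, where chance gives about 1 in 20 for each test. The tests share the same 8 libraries and are not independent. UPF3A in the 9 h STM2457 libraries had 17.1 CPM in replicate 2 and 18.2 to 18.4 CPM in the others, a gap of 0.858 of the range. UPF3B in the 9 h DMSO libraries had 113.4 CPM in replicate 1 and 123.6 to 125.0 CPM in the others, a gap of 0.879 of the range. The cause was not tested.

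The effect of STM2457 differed between conditions, by a test of the difference, in 7 cases. With siRNA against without it, the log2 difference was 0.36 for UPF2 and -0.41 for SMG8. With emetine against without it, it was -0.61 for SMG8 and 0.31 for SMG9. At 9 h against 6 h it was 0.32 for UPF2, 0.34 for SMG6 and -0.56 for SMG8. For the time points, experiment and time cannot be told apart. The call for UPF2 by siRNA was lost without any of 3 libraries.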

How the results depend on the processing

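All values are log2 changes or numbers of genes called. Of 522 values of single factors under other settings than leaving out a library, 480 kept direction and side of the threshold, 26 changed sign, 14 were no longer called and 2 were newly called. Of 846 values with 1 library left out, 770 kept both, 47 changed sign, 18 lost the call and 11 gained it. With spike-in scaling, signs changed for STM2457 at 6 h in SMG1 (-0.2442), SMG5 (-0.2714), SMG6 (-0.2744), UPF1 (-0.3402), UPF2 (-0.2822) and UPF3B (-0.2355), with siRNA in SMG1 (-0.1505) and UPF3B (-0.2725), with emetine in SMG5 (-0.0206), SMG6 (-0.0507) and UPF2 (-0.0768), and without emetine in SMG1 (-0.0184), SMG5 (-0.0663), UPF1 (-0.1192) and UPF3B (-0.0291). For emetine they changed in UPF3B (0.3883 without and 0.4436 with STM2457) and in SMG8 with STM2457 (0.3264). The difference by emetine of SMG5 was 0.0457 with spike-in scaling, 0.0005 with DESeq2 and 0.0004 with median-ratio size factors. The difference between 9 h and 6 h of UPF1 was -0.0338 with DESeq2 and with median-ratio size factors and -0.0122 with no filter on low counts. With no filter, SMG1 at 9 h was 0.0035 and the difference by emetine of UPF3B was -0.0086.

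Spike-in scaling moved these counts: 2519 genes and 1 factor called for STM2457 with siRNA, 3932 genes and 1 factor for STM2457 with emetine, 3 factors for STM2457 without emetine, 4882 genes and 4 factors for siRNA in DMSO, and 4450 genes and 4 factors for siRNA with STM2457. The difference by emetine was called for 705 genes and 1 factor. The difference by siRNA was called by edgeR for 0 genes and 0 factors on this scale, where 395 genes had an unadjusted p under 0.05. Without spike-in scaling it was called for 1450 genes by edgeR and 1644 by DESeq2, and DESeq2 was not run on the spike-in scale. For the difference by siRNA the median gene shifted by 0.06 on the spike-in scale. Its SE was 0.27 for both SMG8 and UPF2, beside 0.08 and 0.10 by TMM. The shifts of the median gene for the group comparisons are given with the spike-in results, and what else moved these counts was not tested. The 9 h minus 6 h calls were 2878 higher and 2809 lower by TMM, 2148 and 3588 by DESeq2 and 2334 and 3605 by median-ratio size factors.

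With 1 library left out, the genes called for the difference by siRNA ran from 879 to 2196, the factors called for it from 1 to 2, and the factors called for STM2457 without emetine from 3 to 6. Ranges that crossed 0, none of them called with all libraries, were, at 6 h, SMG6 (-0.0046 to 0.101), UPF1 (-0.0605 to 0.0639) and UPF2 (-0.047 to 0.1195), and at 9 h SMG1 (-0.0316 to 0.0188) and UPF1 (-0.002 to 0.0227). For STM2457 with siRNA it was SMG6 (-0.0627 to 0.0132), without emetine UPF1 (-0.0503 to 0.0263), and with emetine SMG6 (-0.0007 to 0.0712), SMG9 (-0.043 to 0.0265) and UPF2 (-0.0357 to 0.045). For siRNA with STM2457 it was SMG8 (-0.0228 to 0.0467), and for the difference by siRNA SMG1 (-0.0724 to 0.18). For the difference by emetine they were SMG1 (-0.0053 to 0.0908), SMG5 (-0.03 to 0.0366) and UPF3B (-0.0613 to 0.088), and for 9 h minus 6 h UPF1 (-0.0488 to 0.07), UPF3A (-0.0042 to 0.0853) and UPF3B (-0.101 to 0.0211). The cause was not tested.

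The replicate numbers were not taken to pair the libraries, since not every same-numbered pair had deviations correlated above 0.1. In the knockdown experiment 10 of 18 same-numbered pairs did (median 0.14), against 9 of 36 other pairs (median -0.0782). It was 3 of 18 against 10 of 36 in the emetine experiment and 0 of 4 against 6 of 12 at 9 h. With the replicate block, 7635 genes were called for STM2457 at 6 h (7491 without it) and 1527 for the difference by siRNA (1450 without it), and no count of factors called changed. UPF3A, with as few as 314 counts in a library, had the widest relative counting error of the 9.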
